A study of Paxillus involutus with 25 samples.

Results

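Mycelium of Paxillus involutus fed by phlogopite was compared with mycelium fed by muscovite, using the 10 cultures that the labels assign to these minerals, 5 for each, out of 25 cultures in the series. The fungus was strain ATCC 200175 throughout. Both groups grew on MMN agar made without KH2PO4, here called K-depleted medium, with a flake of about 2 cm2 of the mineral on a cellophane membrane and agar plugs of the fungus set at 3 points around it, for 21 days at 25 °C in the dark. The other groups, used only as points of reference, were 5 cultures each on K-depleted medium alone, on complete MMN medium and on K-depleted medium with K-vermiculite. Leaving out KH2PO4 takes away the phosphate of that salt along with its potassium. No substitute source of phosphate is mentioned in the labels, and how much phosphate the medium still held was not examined here. This limit is shared by all 4 groups grown without KH2PO4. Agar plugs of 1 strain supplied every culture, so the replicates are separate dishes and not separate isolates.

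Paxillus involutus is a basidiomycete that forms ectomycorrhiza, the sheathing symbiosis in which a fungus passes mineral nutrients to tree roots in return for sugar. Muscovite and phlogopite are micas: sheets of silicate held together by potassium ions, which a fungus can free with acids, chelators and mechanical force. They differ in the metal at the centre of each of these sheets, mainly aluminium in muscovite and mainly magnesium in phlogopite. The labels list muscovite before phlogopite in an order of falling potassium weatherability, whereas textbooks generally give phlogopite as the mica that weathers more readily; neither order was checked here. The comparison asks whether the fungus answers the micas differently.

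RNA was measured as read counts per gene, one column per culture, and levels are given as CPM, counts per 1000000 counts of a library after TMM scaling. TMM scaling puts the libraries on a common scale, so that a gene can be set against itself between cultures. CPM takes no account of gene length, which limits how far different genes can be set against each other. Library totals ran from 24.8 to 33.6 M counts (1 M is 1000000) with phlogopite and from 26.2 to 31.9 M with muscovite, and the groups did not differ in total counts, in genes detected or in TMM factor (adjusted p 0.881 for each, exact two-sided permutation tests of 5 against 5, adjusted over 4 measures). The 10 most abundant transcripts took 7.15% ± 0.873 of the counts with phlogopite and 8.70% ± 1.23 with muscovite (SD, n = 5; exact permutation p 0.0714, adjusted 0.286). Of 18032 gene IDs, 12744 passed a filter on low counts and were tested. Neither the count table nor the reference pairs the IDs with products, apart from the symbols nps2 and pks3, so genes are given by ID and no function is named for them. For the same reason markers of mycelium could not be looked up.

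As whole transcriptomes the 2 groups were not shown to be separate by a permutation test that ignored replicate numbers. Such a result does not establish that there is no separation. Mineral accounted for 17.9% of the spread in log2 CPM, summed over tested genes (exact one-sided permutation p 0.135 over 252 assignments of the 10 cultures). Of the 10 cultures, 7 lay nearer to the mean of the rest of their own group than to the mean of the other group. The exceptions were muscovite replicate 3 and phlogopite replicates 1 and 2. Muscovite replicate 3 stood at a root mean square distance of 0.291 on the log2 scale from its own group and 0.253 from the phlogopite mean. The first principal component, with 37.3% of the variance, spread cultures within both groups: phlogopite replicates 1 and 2 lay at -12.4 and -13.3, close to muscovite replicates 1, 2 and 5 at -18.4, -16.5 and -14.1. Phlogopite replicates 3, 4 and 5 lay at 8.95, 27.8 and 23.6, and muscovite replicates 3 and 4 at 8.14 and 6.14. On the second component, with 15.8%, all 5 phlogopite cultures but replicate 4 lay below every muscovite culture. Replicates were about equally variable in the 2 groups, with a median SD over genes of 0.146 on the log2 CPM scale with phlogopite and 0.141 with muscovite. The value for whole transcriptomes rested on single cultures, since without phlogopite replicate 2 the share was 22.0% and the exact permutation p 0.0476.

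**Figure D1:**
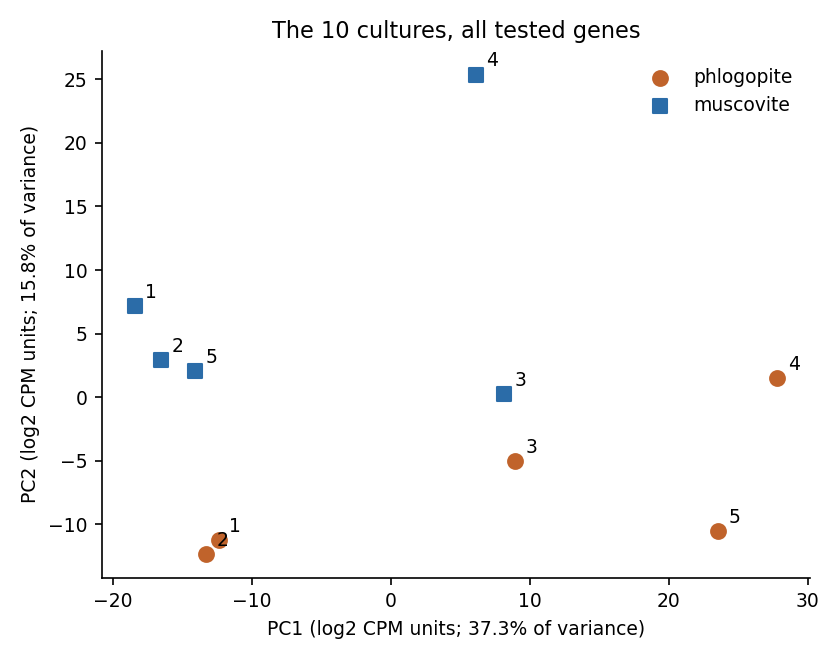
Each point is 1 culture, placed by the first 2 principal components of log2 CPM (12744 tested genes) and labelled with its replicate number. Phlogopite replicates 1 and 2 share the left side, below -12, with muscovite replicates 1, 2 and 5, and muscovite replicate 4 stands alone at 25.4 on the second component.

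Gene by gene, 529 of the 12744 tested genes differed between the minerals (4.15%; edgeR quasi-likelihood test, Benjamini-Hochberg adjusted p below 0.05). Of these, 247 were higher with phlogopite (1.94% of those tested) and 282 were lower (2.21%). Most differences were small: the median called gene differed 1.26-fold, and 447 of the 529 differed less than 1.5-fold. A difference of at least 2-fold was called for 15 genes (0.118%), all of them lower with phlogopite. In that fit 0 genes were called at least 2-fold higher with phlogopite by edgeR, where 8 had an unadjusted p under 0.05, and DESeq2 and limma-voom each called 1. The count rested on single cultures, at 212 without phlogopite replicate 4, 245 without phlogopite replicate 5, and 238, 253 and 306 without muscovite replicates 1, 2 and 5. Fitted on the 10 libraries alone, 214 genes were called, 194 of them among the 529. Genes at least 2-fold apart numbered 33 without muscovite replicate 3, and 11 of these were higher with phlogopite. The absence of 2-fold higher calls also rested on other cultures, with 3 such calls without phlogopite replicate 1, 2 without phlogopite replicate 2, and 1 each without phlogopite replicates 3 and 5, without muscovite replicate 5 and with the replicate number as a block.

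The test also bounds how far genes differed, gene by gene and over called and uncalled genes alike. For 12239 tested genes (96.0%) the 95% interval of the log2 fold change lay wholly within 2-fold in either direction, and the median standard error was 0.09 on the log2 scale. Of the other 505 genes, 307 had a mean under 5 CPM over the 10 cultures, where counts are few. Calls followed abundance, taken here as the mean CPM over all 25 cultures: 1.41% of the 3186 least abundant genes were called and 5.99% of the 3186 most abundant. The direction turned with abundance too, from 10 higher and 35 lower with phlogopite among the least abundant to 120 higher and 71 lower among the most abundant. Where the mean reached 5 CPM, phlogopite and muscovite values did not overlap for 5.73% of the 10023 genes tested, and for 291 of the 485 called.

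**Figure D2:**
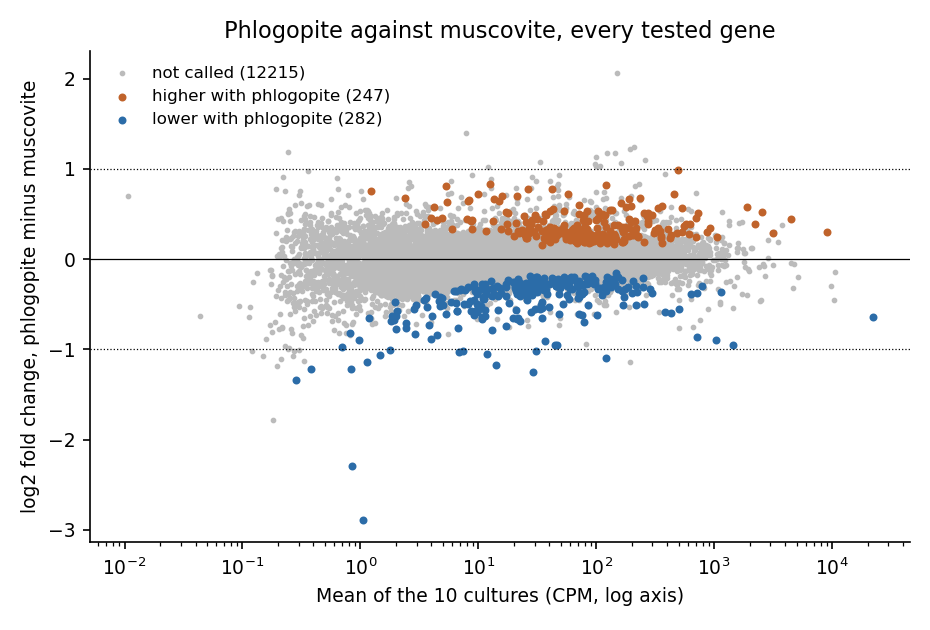
Each point is 1 tested gene, with its mean CPM over the 10 cultures (log axis) against its log2 fold change, phlogopite minus muscovite; dotted lines mark 2-fold. The 247 genes higher with phlogopite stay below the upper line, while 15 of the 282 lower genes lie beyond the lower one.

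Among genes higher with phlogopite whose groups did not overlap and whose mean was at least 5 CPM, PAXINDRAFT_167028 had the widest difference. It stood at 610, 590, 658, 873 and 532 CPM in phlogopite replicates 1 to 5 and at 188, 271, 473, 345 and 375 CPM in muscovite replicates 1 to 5, a log2 fold change of 0.98 ± 0.21 SE (adjusted p 0.0127 by edgeR). Every phlogopite culture was above every muscovite culture, although the gap between the lowest and the highest was narrow. The call was lost when the 10 libraries were fitted alone (adjusted p 0.0652). On K-depleted medium alone the gene averaged 597 ± 160 CPM (SD, n = 5), close to the phlogopite mean of 653 ± 131 CPM.

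PAXINDRAFT_99821 showed the same arrangement at a lower level, with 16.3, 15.3, 13.5, 19.3 and 15.7 CPM with phlogopite and 7.02, 8.44, 11.1, 7.93 and 10.5 CPM with muscovite (log2 fold change 0.83 ± 0.16 SE, adjusted p 0.00479 by edgeR). Its mean on K-depleted medium was 18.1 ± 5.83 CPM (SD, n = 5), and on complete medium 1.75 ± 0.298 CPM. The groups were apart and the phlogopite values were again close to the bare medium. PAXINDRAFT_164932 varied little among phlogopite cultures, at 287, 283, 284, 312 and 276 CPM with phlogopite against 158, 183, 203, 151 and 208 CPM with muscovite (log2 fold change 0.67 ± 0.11 SE, adjusted p 0.00131 by edgeR). Its mean was 266 ± 26.8 CPM without any mineral (K-depleted) and 105 ± 21.5 CPM in the complete group. The lowest phlogopite value was well above the highest muscovite value.

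The lowest adjusted p among genes higher with phlogopite belonged to PAXINDRAFT_94095, at 128, 123, 124, 140 and 131 CPM with phlogopite and 80.0, 92.6, 103, 90.0 and 96.4 CPM with muscovite. The log2 fold change was only 0.49 (SE 0.07, edgeR adjusted p 0.000298), but the replicates were tight on both sides and the groups were clearly apart. Of the other genes in the 12 widest differences, PAXINDRAFT_158864, PAXINDRAFT_21058, PAXINDRAFT_73407, PAXINDRAFT_93209, PAXINDRAFT_102586, PAXINDRAFT_18633, PAXINDRAFT_74801 and PAXINDRAFT_123034 had log2 fold changes from 0.81 down to 0.59. All of them kept their call when any 1 of the 10 cultures was left out, though PAXINDRAFT_123034 lost it with the 10 libraries fitted alone (adjusted p 0.0815). PAXINDRAFT_76742, at 33.4 ± 7.12 CPM with phlogopite against 19.5 ± 4.09 CPM (SD over 5 muscovite cultures, log2 fold change 0.77), stood on weaker ground. Its edgeR adjusted p of 0.0317 rose to 0.0596 and 0.0801 without phlogopite replicates 1 and 5, and to 0.0556, 0.0919, 0.0626 and 0.0716 without muscovite replicates 1, 2, 4 and 5. It was also the exception in its response to nutrients, being higher on complete medium, at 156 ± 26.9 CPM, than on K-depleted medium, at 36.2 ± 6.78 CPM.

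Abundant transcripts were among the genes higher with phlogopite. PAXINDRAFT_165289 averaged 5157 ± 604 CPM with phlogopite against 3804 ± 471 CPM (SD over 5 muscovite cultures, log2 fold change 0.44 ± 0.09 SE, adjusted p 0.00786 by edgeR), and was not called with the 10 libraries fitted alone (0.0659). The genes listed on either side of it in the reference, PAXINDRAFT_165288 and PAXINDRAFT_165291, were higher with phlogopite as well, by 0.50 and 0.39 on the log2 scale, though their groups overlapped. This pair was picked after its values were seen, and neither gene was called with the 10 libraries fitted alone (adjusted p 0.201 and 0.142). Both calls were also lost without phlogopite replicate 4 (adjusted p 0.125 and 0.119) and without muscovite replicates 1 (0.105 and 0.103) and 2 (0.101 and 0.0941); that of PAXINDRAFT_165288 was also lost without phlogopite replicates 3 (0.0642) and 5 (0.0544) and muscovite replicate 4 (0.0716). PAXINDRAFT_165289 itself kept its call without any 1 culture, at adjusted p of at most 0.0353. PAXINDRAFT_13013 and PAXINDRAFT_169584 were called at 3442 ± 289 against 2822 ± 120 CPM and at 2521 ± 331 against 1926 ± 43.0 CPM. Leaving out cultures one at a time took the adjusted p of PAXINDRAFT_13013 to between 0.0334 and 0.0921, losing the call for every culture but phlogopite replicate 5. That of PAXINDRAFT_169584 ranged from 0.0171 to 0.0810, with the call lost without phlogopite replicates 2, 4 and 5 and without muscovite replicates 1, 2 and 5.

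Among genes lower with phlogopite that had a mean of at least 5 CPM and no overlap, PAXINDRAFT_103014 had the widest difference, at 16.3, 15.6, 19.7, 20.5 and 13.5 CPM with phlogopite and 33.7, 41.6, 39.1, 31.2 and 57.8 CPM with muscovite (log2 fold change -1.25 ± 0.25 SE, adjusted p 0.00845 by edgeR). All muscovite cultures were above all phlogopite cultures. The call was lost with the replicate number as a block on the 10 libraries alone (adjusted p 0.0555 by edgeR). On K-depleted medium the gene averaged 11.2 ± 4.58 CPM (SD, n = 5), below both minerals. PAXINDRAFT_102380 was more even among muscovite cultures, at 15.1, 14.0, 23.7, 25.7 and 22.7 CPM with phlogopite and 39.2, 39.5, 37.9, 46.6 and 42.1 CPM with muscovite (log2 fold change -1.02 ± 0.16 SE, adjusted p 0.00131 by edgeR). Phlogopite replicates 1 and 2 were the lowest and lay near the K-depleted mean of 12.7 ± 2.83 CPM. The gene next to it in the reference, PAXINDRAFT_17873, averaged 2.77 ± 0.692 CPM with phlogopite against 5.10 ± 0.630 CPM and was called lower (log2 fold change -0.89 ± 0.18 SE, adjusted p 0.00614 by edgeR). PAXINDRAFT_17873 was picked after its values were seen, as a called neighbour of a called gene. That both are called follows from this choice.

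PAXINDRAFT_20619 combined a wide difference with a high level. It stood at 741, 852, 865, 627 and 526 CPM with phlogopite and 1431, 1579, 1146, 1012 and 1555 CPM with muscovite (log2 fold change -0.90 ± 0.17 SE, adjusted p 0.00465 by edgeR). The groups did not overlap, and the phlogopite mean, 722 ± 146 CPM, was next to the K-depleted mean of 719 ± 85.4 CPM (SD, n = 5). On complete medium the gene was far lower, at 79.2 ± 11.7 CPM. PAXINDRAFT_166331 had the lowest adjusted p of the genes named by rule, at 15.1, 13.5, 12.7, 10.7 and 11.8 CPM with phlogopite and 23.0, 20.4, 22.0, 20.5 and 20.7 CPM with muscovite (log2 fold change -0.74 ± 0.09 SE, adjusted p 3.34e-05 by edgeR). Its K-depleted mean of 17.2 ± 2.33 CPM lay between the minerals, and on complete medium it rose to 70.6 ± 5.02 CPM.

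Of the other genes in the 12 widest falls, PAXINDRAFT_15291, PAXINDRAFT_13875, PAXINDRAFT_94322, PAXINDRAFT_155804, PAXINDRAFT_169405, PAXINDRAFT_130125 and PAXINDRAFT_94807 had log2 fold changes from -1.05 to -0.67 and kept their call when any 1 culture was left out. With the replicate number as a block on the 10 libraries alone, the call of PAXINDRAFT_169405 was lost (edgeR adjusted p 0.0503). PAXINDRAFT_13875 owed part of its size to muscovite replicate 1, at 15.3 CPM against 7.13 to 8.54 CPM in the other muscovite cultures, and was lost with the 10 libraries fitted alone (edgeR adjusted p 0.0711). PAXINDRAFT_172426, at 9.64 ± 1.15 CPM with phlogopite and 16.7 ± 2.75 CPM with muscovite (SD, n = 5; edgeR adjusted p 0.0315), was lost without phlogopite replicates 3, 4 and 5 (0.0667, 0.0820 and 0.0791) and without muscovite replicates 1, 3 and 5 (0.0726, 0.0574 and 0.0621). Among the abundant genes, PAXINDRAFT_171919 fell from 1291 ± 94.7 CPM with muscovite to 1001 ± 50.6 CPM with phlogopite and PAXINDRAFT_171884 from 867 ± 23.9 to 706 ± 66.5 CPM. Without one culture at a time their adjusted p reached 0.0775 and 0.0717; the call of PAXINDRAFT_171884 was lost without phlogopite replicates 4 and 5, and that of PAXINDRAFT_171919 without phlogopite replicates 2, 4 and 5 and muscovite replicates 1, 2 and 5.

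**Figure D3:**
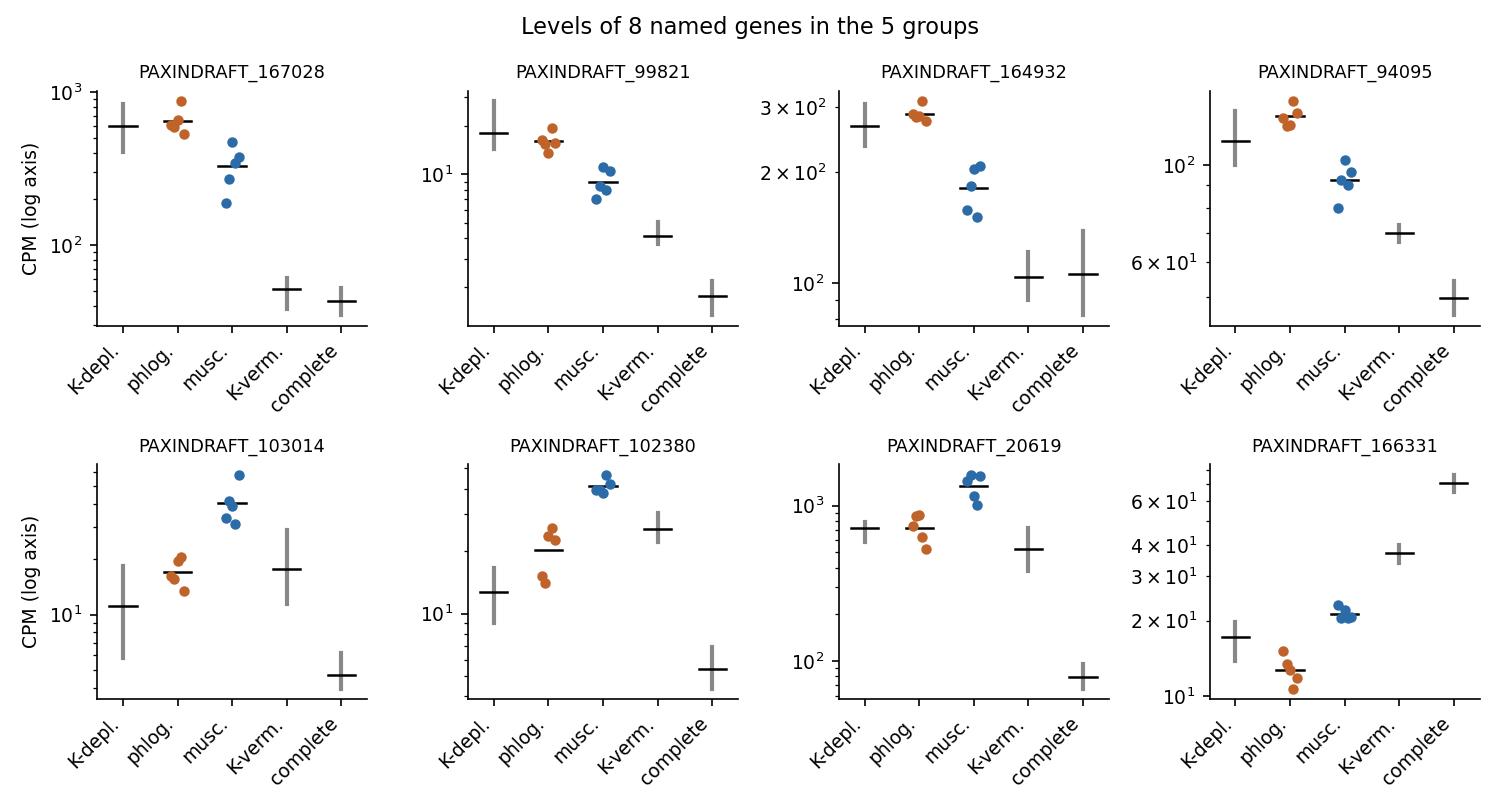
CPM (log axes, a separate one for each gene) of 4 genes higher with phlogopite (upper row) and 4 lower with phlogopite (lower row). Points are the 5 phlogopite and 5 muscovite cultures, grey bars run from the lowest to the highest of the 5 cultures in the other groups, and black lines are group means. For PAXINDRAFT_167028 and PAXINDRAFT_20619 the phlogopite mean lies close to that of K-depleted medium, at 653 and 597 CPM and at 722 and 719 CPM.

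The most abundant called transcript, PAXINDRAFT_68958, fell outside the rule for named genes because its groups overlapped, and was picked after its values were seen. It stood at 19387, 16985, 19394, 15560 and 14642 CPM with phlogopite and at 29867, 29556, 17285, 28473 and 29276 CPM with muscovite (log2 fold change -0.65 ± 0.14 SE, adjusted p 0.00988 by edgeR). Of the muscovite cultures 4 were above every phlogopite culture, and replicate 3 was within the phlogopite range. The call was kept without any 1 culture and lost with the 10 libraries fitted alone (0.0549). With K-vermiculite the transcript averaged 25943 ± 2979 CPM, on K-depleted medium 18197 ± 1332 CPM and on complete medium 8815 ± 1649 CPM (SD, n = 5).

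The largest fold changes among called genes were found near the limit of detection, in genes also picked after their values were seen. PAXINDRAFT_102218 stood at 0.339, 0.181, 0.255, 0.160 and 0.326 CPM with phlogopite and at 2.02, 2.14, 1.29, 2.19 and 1.64 CPM with muscovite, which is 5 to 9 counts a library against 40 to 63 (log2 fold change -2.89 ± 0.25 SE, adjusted p 8.28e-08 by edgeR). Its neighbour in the reference, PAXINDRAFT_102217, had 4 to 14 counts with phlogopite and 27 to 52 with muscovite (log2 fold change -2.29 ± 0.30 SE, adjusted p 9.76e-05 by edgeR). Both were higher with muscovite than in any other group mean: K-depleted cultures averaged 0.491 and 0.585 CPM, complete-medium cultures 0.438 and 0.269 CPM, and K-vermiculite cultures 0.272 and 0.265 CPM. Both calls were kept without any 1 culture and with the 10 libraries fitted alone. Another pair of neighbours, PAXINDRAFT_94322 and PAXINDRAFT_141730, was lower with phlogopite by 1.02 and 1.01 on the log2 scale, at 4.88 ± 1.33 against 9.92 ± 0.616 CPM and 1.18 ± 0.244 against 2.39 ± 0.426 CPM (SD, n = 5).

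Large mean differences were not always called. A further 15 genes whose mean reached 5 CPM differed at least 2-fold without passing the test, 14 of them higher with phlogopite, and in all 15 the groups overlapped. The widest was PAXINDRAFT_166955, at 137, 451, 36.1, 87.8 and 503 CPM with phlogopite and 43.8, 55.9, 81.7, 51.8 and 58.2 CPM with muscovite (log2 fold change 2.06 ± 0.79 SE, adjusted p 0.146 by edgeR). Phlogopite replicates 2 and 5 carried the high mean, while replicate 3 was below every muscovite culture.

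Whether a called difference reflected a departure from the bare medium under one mica or the other was read from the K-depleted cultures, as a description, since the genes were chosen on the phlogopite and muscovite values. The K-depleted mean lay between the 2 mineral means for 190 of the 247 genes higher with phlogopite and for 219 of the 282 lower. Genes chosen for a gap between the minerals are more likely to have the mean of another group inside it. No count over all tested genes is given for comparison, so these counts do not by themselves show how the genes respond. On the log2 scale the K-depleted mean was nearer to the phlogopite mean for 284 of the 529 genes and nearer to the muscovite mean for 245. Among genes lower with phlogopite, the K-depleted mean was below both minerals for 44 and above both for 19. Among genes higher with phlogopite it was above both for 38 and below both for 19.

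The same genes were then followed in cultures that took no part in the comparison. Complete medium and K-vermiculite were each set against K-depleted medium; these contrasts use no phlogopite or muscovite library but share the K-depleted libraries with each other. Of all tested genes, 67.0% were called between complete and K-depleted medium, 33.5% higher and 33.5% lower on complete medium. Of the 247 genes higher with phlogopite than with muscovite, 200 (81.0%) were lower on complete medium and 17 were higher. Their median log2 fold change, complete minus K-depleted, was -0.58, against 0.01 for all tested genes. Genes higher with phlogopite were thus mostly genes that stood higher on K-depleted medium alone than on complete medium.

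Genes lower with phlogopite were more divided in that contrast: 143 of the 282 (50.7%) were higher on complete medium and 82 (29.1%) lower, with a median log2 fold change of 0.20. Among the named genes the balance was the reverse: 8 of the 12 widest falls were lower on complete medium and 3 were higher. PAXINDRAFT_20619 and PAXINDRAFT_169405 show both kinds. PAXINDRAFT_20619 fell by 3.18 on the log2 scale on complete medium, and PAXINDRAFT_169405 rose by 2.59.

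Set against K-depleted medium, K-vermiculite changed 46.2% of all tested genes, 22.5% higher and 23.7% lower. Of the genes higher with phlogopite than with muscovite, 187 of 247 (75.7%) were lower with K-vermiculite and 6 were higher. Of those lower with phlogopite, 189 of 282 (67.0%) were higher with K-vermiculite and 15 were lower. Median log2 fold changes, K-vermiculite minus K-depleted, were -0.37 and 0.34 for these genes. In both directions, most of the called genes thus differed between phlogopite and muscovite the way they differed between K-depleted medium and K-vermiculite. An earlier summary of the same libraries, which placed phlogopite cultures below muscovite cultures between the controls, was known when this description was made, so it is not independent of that result.

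**Figure D4:**
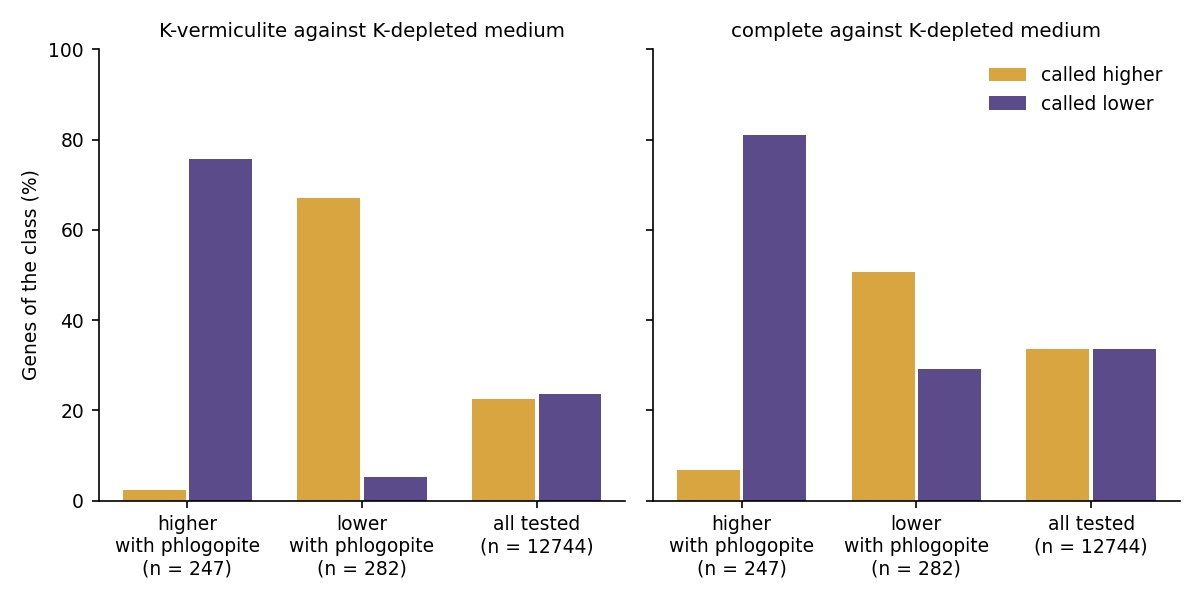
Bars give the share of genes called higher or lower in 2 contrasts that use no phlogopite or muscovite library, for the 247 genes higher with phlogopite, the 282 lower, and all 12744 tested. Genes higher with phlogopite were called lower in 75.7% (K-vermiculite) and 81.0% (complete medium) of cases, against 23.7% and 33.5% of all tested genes.

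Called genes were also examined for their place in the reference, which lists genes in order along unnamed sequences. Of 10383 pairs of tested neighbours, 41 pairs had both genes called, 34 of them in the same direction. This is a count without a test, beside 4.15% of all tested genes called. Pairs inside the run described next were not set apart in it, so it is not read as clustering elsewhere. A run of neighbouring genes stood out in this listing. Over 8415 windows of 15 consecutive tested genes, at most 12 were called lower with phlogopite in a window of the run, and at most 3 in any window clear of it; at most 4 were called higher in any window. The run was bounded, after its values were seen, by the first and last called gene in windows with at least 5 called lower, so its calls are a description and have no test. Counts do not separate more RNA per gene copy from more gene copies, and copy number of this stretch in the cultures was not examined.

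The run holds 31 consecutive tested genes, from PAXINDRAFT_99722 to PAXINDRAFT_155835, of which 20 were called lower with phlogopite. None was called higher by edgeR, DESeq2 or limma-voom, and 0 had an unadjusted p under 0.05 in that direction. The genes ranged in level from 2.42 to 217 CPM, and the median log2 fold change was -0.31. At its ends PAXINDRAFT_99722 and PAXINDRAFT_155835 differed by -0.62 and -0.76 on the log2 scale, and within it PAXINDRAFT_180792 differed by -0.58, PAXINDRAFT_163175 by -0.51 and PAXINDRAFT_169367 by -0.19. Of the 31 genes, 26 had a negative log2 fold change. Those without one included PAXINDRAFT_163161, at 0.01, and PAXINDRAFT_99731, at 0.11. The ends of the run were set at called genes, so uncalled genes beside it follow in part from how it was bounded. Of the 12 tested genes before it and the 25 after it edgeR called 0, with medians of 0.04 and 0.01; 4 and 2 of them had an unadjusted p under 0.05, and limma-voom called 0 and 1, and DESeq2 called 0 of either. The gene directly after the run, PAXINDRAFT_78116, was not called but differed by -0.67 on the log2 scale (adjusted p 0.124 by edgeR). The gene directly before the run, PAXINDRAFT_59504, was not called either and differed by 0.76, in the other direction.

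Each culture was summarised by the median over the 31 genes of its log2 CPM minus the gene's mean over all 25 cultures. Muscovite replicates 1 to 5 stood at 0.38, 0.37, 0.36, 0.35 and 0.43, and phlogopite replicates 1 to 5 at -0.05, -0.09, 0.04, 0.12 and 0.11. On this median the muscovite cultures lay close together, replicates 3 and 4 included. A median over 31 genes evens out differences between cultures, and no other run was summarised for comparison. How unusual such narrow ranges are was therefore not tested. Cultures of the other groups kept to narrow ranges of their own: -0.16 to -0.09 on K-depleted medium, 0.08 to 0.23 with K-vermiculite and -0.49 to -0.35 on complete medium. The ranges of phlogopite and K-vermiculite overlapped, the others did not, although phlogopite replicate 2 lay only just above the K-depleted cultures. Because the run was chosen in these libraries for genes lower with phlogopite than with muscovite, the gap between those 2 groups follows from the choice.

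Against K-depleted medium, 23 of the 31 genes were called higher with muscovite and 0 lower, where 3.36% of all tested genes were called, 1.5% higher and 1.86% lower. With phlogopite 6 were higher and 0 lower, where 5.15% of all tested genes were called, 2.77% higher and 2.38% lower. These 2 contrasts share the K-depleted libraries and use the libraries that defined the run. In contrasts that use neither mineral, 19 of the 31 were higher with K-vermiculite (22.5% of all tested) and 2 lower, and 18 were lower on complete medium (33.5% of all tested) and 2 higher. Without it, 262 genes remained lower with phlogopite and 509 called in all.

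**Figure D5:**
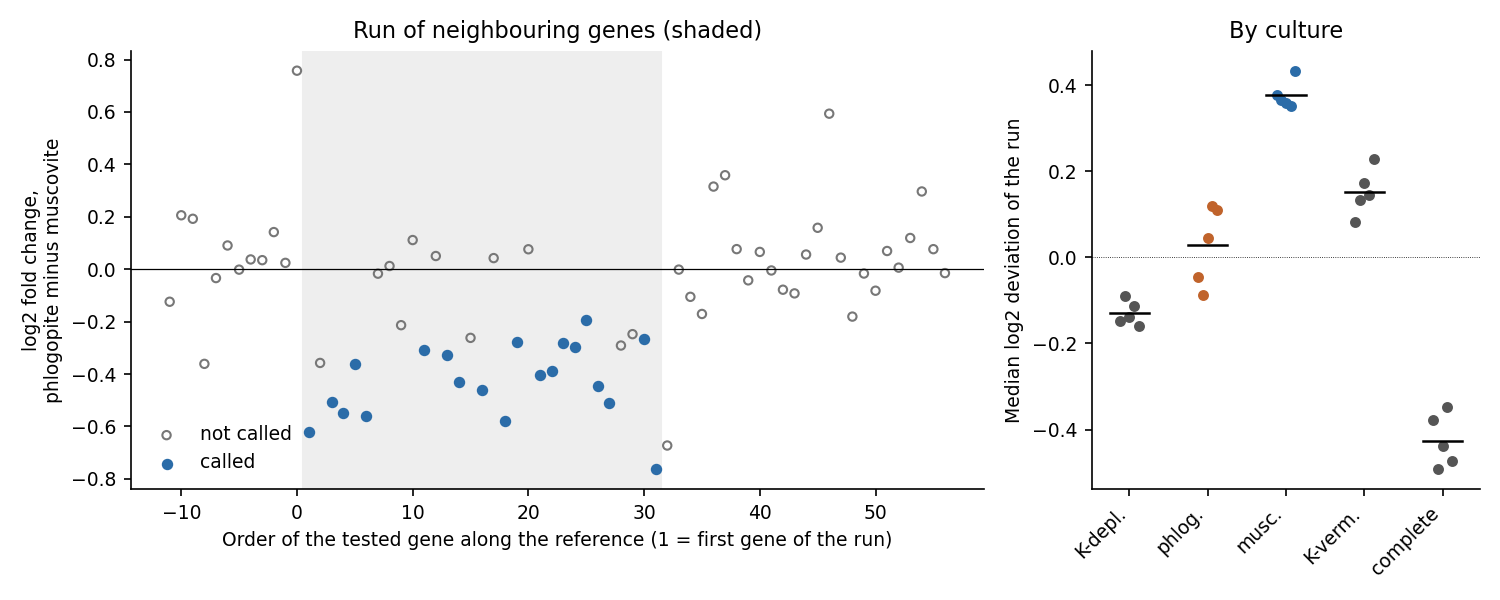
Left, the log2 fold change, phlogopite minus muscovite, of consecutive tested genes along the reference, with the run of 31 genes shaded and called genes filled. Right, the median log2 deviation of the run in each of the 25 cultures, with group means as black lines. The 5 muscovite cultures sit between 0.35 and 0.43, above all others. The run was picked for genes lower with phlogopite than with muscovite, so the gap between these 2 groups follows from that choice.

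The 2 IDs that carry symbols were not called between the minerals. The symbols are of a kind used for nonribosomal peptide synthetases (nps) and polyketide synthases (pks), enzymes of secondary metabolism. The gene nps2 stood at 124, 138, 131, 167 and 139 CPM with phlogopite and 118, 120, 121, 137 and 118 CPM with muscovite (log2 fold change 0.19 ± 0.07 SE, adjusted p 0.139 by edgeR). The groups overlapped through muscovite replicate 4 alone. The gene pks3 stood at 52.5, 55.3, 43.4, 14.8 and 52.9 CPM with phlogopite and 49.9, 54.5, 40.3, 12.5 and 54.5 CPM with muscovite (log2 fold change 0.04 ± 0.46 SE, adjusted p 0.970 by edgeR). Replicate 4 was the low culture in both groups. With the replicate number as a block on the 10 libraries alone, the log2 fold change of pks3 was 0.07 (adjusted p 0.479 by edgeR).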

How the data were processed

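The authors deposited whole-number counts per gene for 25 libraries made with a stranded poly(A) kit, per the labels. The submitters' processing notes name bcl2fastq 2.19, STAR 2.5.2b and HTSeq; their settings, the genome build, the use of strand and the handling of multi-mapping reads were not stated in these sources, so values of near-identical or overlapping genes are uncertain. All 18032 IDs matched a reference table, used only for symbols, biotypes and gene order; a drop in start position was taken as a new sequence.

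The analysis of these counts used edgeR 4.0.16 under R 4.3.3: filterByExpr (minimum count 10, minimum total 15), TMM, 1 coefficient per group over all 25 libraries, robust glmQLFit and glmQLFTest, Benjamini-Hochberg adjustment over 12744 genes, tested on simulated data. A standard error is the log2 fold change over the square root of F. Neighbours lie within 5000 bases. Principal components and variance shares used log2 CPM with a prior count of 2. P-values measure the spread between dishes; replicates differed by 10.7 to 89.9 chi-square per degree of freedom, above counting noise, and all were kept.

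Genes named by rule were called, had a mean of at least 5 CPM over the 10 cultures and no overlap: the 12 with the widest differences, the 3 most abundant and the 1 with the lowest adjusted p in each direction, with nps2 and pks3. Members, rules and tests were chosen with earlier results of these data known. Lists by protein pattern or product name were not run, since no protein sequences or product names were used here. Alternatives were RLE scaling, library totals, other filters, DESeq2 1.42.0, limma-voom (limma 3.58.1), 1 surrogate variable (sva 3.50.0), the 10 libraries alone, a replicate block and leaving out each culture.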

Additional observations from a re-analysis of the deposited data

Results flagged for a closer look

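Of 75 sets of 5 values examined, 6 held a culture far from the other 4 of its group, where chance gives about 1 in 20. Phlogopite replicate 4 was the highest of its group for PAXINDRAFT_123034, at 115 CPM, and for PAXINDRAFT_165289, at 6206 CPM. Phlogopite replicate 3 was the lowest for PAXINDRAFT_169405, at 21.0 CPM, and phlogopite replicate 5 had the fewest genes detected, 13126. Muscovite replicate 1 was the highest of its group for PAXINDRAFT_13875, at 15.3 CPM, and muscovite replicate 4 for nps2, at 137 CPM. The called genes among these kept their calls when that culture was left out.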

How the results depend on the processing

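The number of called genes was within 1.5 times 529 under RLE scaling (525), library totals (451, of which 41.02% higher in place of 46.7%), no filter (483), a filter at 5 CPM (571), limma-voom (526) and 1 surrogate variable (711), and was 805 with DESeq2 and 214 with the 10 libraries alone. Leaving out 1 culture gave 212 to 761. Genes at least 2-fold apart numbered 6 with the filter at 5 CPM and 10 to 33 without 1 culture. The variance share was 16.5% to 22.4% without 1 culture.

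Replicate numbers are shared by the groups, but the labels do not say that a number marks a batch. Deviations of same-numbered cultures correlated at -0.19 to 0.45 and above 0.1 for 4 of 5 numbers, and 4 of 10 cultures correlated best with their own number. These values do not settle whether the numbers mark pairs, and a shared structure remains possible. The main fit left the numbers out because the labels name no batch, and the block is given as an alternative. With the replicate block 592 genes were called, and 313 with the block on the 10 libraries alone, where 9 were at least 2-fold apart.

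The share of genes higher with phlogopite that were lower on complete medium was 86.4% with the 10 libraries alone, 74.6% with 1 surrogate variable, 75.4% with DESeq2 and 63.9% to 89.4% without 1 culture. Lower with K-vermiculite were 66.4% with 1 surrogate variable, 69.1% with DESeq2 and 58.5% to 82.4% without 1 culture. Of genes lower with phlogopite, 39.6% (10 libraries alone), 44.3% (those with the block) and 42.4% to 53.9% (without 1 culture) were higher on complete medium. Higher with K-vermiculite were 58.7% (10 libraries with the block), 59.4% (1 surrogate variable) and 61.9% to 71.3% (without 1 culture). The cause of these shifts was not tested.

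Of 30 called genes named by rule, 24 kept their call without any 1 culture and 23 with the 10 libraries alone. The log2 fold change of pks3, never called, ran from -0.19 to 0.27 without 1 culture, with 4 negative values. In the run of neighbours, 14 to 21 genes were called over all alternatives, a check chosen after seeing the data. Few counts limit genes under 5 CPM.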
